A study of Mus musculus with 6 samples.

Results

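The genes described here code for the subunits of the receptors that open or signal when a neurotransmitter binds. They were found in the table of normalized reads per gene by their symbols, as all ionotropic glutamate receptor genes of the AMPA, kainate, NMDA and delta types, all metabotropic glutamate receptor genes, the GABA-A and glycine receptor genes and the nicotinic acetylcholine receptor genes other than *Chrna9* and *Chrna10*. The symbols picked 30 of the 14865 genes listed. Of these, 29 are receptor subunits and 1 is a scaffold protein that the symbols also picked and that is kept in the counts of tested genes. The 29 subunits comprise 17 glutamate receptor genes (4 AMPA, 4 kainate, 3 NMDA, 2 delta and 4 metabotropic), 7 nicotinic genes, 4 GABA-A genes and 1 glycine receptor gene. All 30 genes had at least 1 read in each of the 6 libraries. Apart from *Chrna9* and *Chrna10*, other genes of these families were not listed under their symbols. The study kept genes with at least 40 reads. Cochlear ducts came from mice at postnatal day 8, of the strain C57BL/6 by the labels and C57BL/6J by the methods of the study, in 3 libraries of Gfi1+/+ and 3 libraries of Gfi1cre/+. Gfi1cre/+ mice carry 1 copy of *Gfi1* in which Cre recombinase was knocked in, so that Cre is driven by the *Gfi1* locus, and no other allele or treatment was named for either genotype. Each Gfi1+/+ library held RNA of 2 cochleae from 1 mouse, whereas each Gfi1cre/+ library pooled 6 cochleae from 3 mice, so the spread between Gfi1cre/+ libraries is that of averages over animals. The Y-linked genes *Ddx3y*, *Eif2s3y*, *Kdm5d* and *Uty* lay at 0 to 1.23 normalized reads in the Gfi1+/+ libraries and at 116 to 489.7 in those of Gfi1cre/+, and *Xist*, the RNA of the inactive X chromosome, at 7338 to 8138 and 2301 to 5359. Transcripts of the Y chromosome were thus near 0 in all Gfi1+/+ libraries and present in all those of Gfi1cre/+, and effects of sex and of genotype cannot be told apart here.

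In the cochlea, inner hair cells release glutamate onto AMPA receptors of the afferent dendrites of spiral ganglion neurons. NMDA, kainate, delta and metabotropic receptors are known at or around the same synapses. Efferent fibres from the brainstem release acetylcholine, which acts on hair cells through the *Chrna9* and *Chrna10* subunits, and GABA. Nicotinic subunits of the neuronal type assemble from alpha and beta subunits, whereas *Chrna1* and *Chrnb1* belong to the receptor of the neuromuscular junction. GABA-A and glycine receptors are chloride channels, and *Glrb* is the structural beta subunit of the glycine receptor that anchors it to gephyrin. Within the AMPA receptors, *Gria2* is the subunit whose edited form keeps the channel nearly impermeable to calcium, and *Grin1* is the obligatory subunit of NMDA receptors. In whole tissue, fewer cells of a type and less RNA per cell cannot be told apart.

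Upstream sequences of 3 genes are shown because these genes carry the values that the results turn on. Among the 28 genes tested, *Grin1* had the largest difference between the genotypes, *Gria2* had the smallest p-value, and *Glrb* had the highest level per length. Each is the 250 bases before the annotated start in RefSeq on GRCm38.p6, 5′ to 3′ on the minus strand, at chr3:80802836-80803085 for *Gria2*, chr2:25319188-25319437 for *Grin1* and chr3:80913661-80913910 for *Glrb*. Promoter windows of RefSeq matched 21 of the 30 genes. Capitals mark matches to letters taken from the element that the repressor REST (a silencer of neuronal genes in other cells) binds, searched on both strands. The long form is AGCACC, then NN, then GGACAGC, and the short form is its end GGACAGC alone, which lies inside the long form.
Gria2: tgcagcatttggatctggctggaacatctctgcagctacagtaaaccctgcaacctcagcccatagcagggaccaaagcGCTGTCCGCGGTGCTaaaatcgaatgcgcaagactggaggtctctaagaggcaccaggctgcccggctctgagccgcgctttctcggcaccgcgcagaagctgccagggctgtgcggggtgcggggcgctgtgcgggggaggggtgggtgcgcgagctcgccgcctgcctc
Grin1: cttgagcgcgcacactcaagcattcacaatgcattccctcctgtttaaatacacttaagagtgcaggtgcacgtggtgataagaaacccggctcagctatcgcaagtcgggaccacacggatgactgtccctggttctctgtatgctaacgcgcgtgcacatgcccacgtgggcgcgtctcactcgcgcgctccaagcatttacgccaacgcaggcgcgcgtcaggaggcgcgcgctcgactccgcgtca
Glrb: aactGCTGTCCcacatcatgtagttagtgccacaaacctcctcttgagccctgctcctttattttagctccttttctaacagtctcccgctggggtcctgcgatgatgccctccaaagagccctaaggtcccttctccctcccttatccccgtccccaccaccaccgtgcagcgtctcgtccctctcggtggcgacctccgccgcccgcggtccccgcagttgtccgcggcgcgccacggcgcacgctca
The long form was found in reverse orientation in the window of *Gria2*, from 171 to 157 bases before the start, and in no other of the matched genes. Of 32851 promoter windows of all genes, 9 (0.0274%) held it. The short form was found in the windows of *Gria2* and *Glrb*, and in 5.28% of all windows. These matches are letters in a window and were not tested for binding. *Gria2* (chr3:80681450-80802835, minus strand) and *Glrb* (chr3:80843599-80913660, minus strand) are neighbours on chromosome 3, 40764 bases apart in GENCODE M21, and *Grin1* lies at chr2:25291181-25319187, minus strand. *Chrna3* and *Chrnb4* lie 1592 bases apart on chromosome 9.

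The 6 libraries held 13603908 to 19359753 reads counted on genes, and 3 reads corresponded to 2.61 to 3.70 normalized reads. *Grm8* was among the most sparsely read subunits, with 7 reads in Gfi1+/+ replicate 3, and the most deeply read was *Glrb*, with up to 2178 reads in a library. *Gfi1* itself was at 147, 160.2 and 152 normalized reads in the Gfi1+/+ libraries, in replicate order, and 136, 129.6 and 139 in those of Gfi1cre/+. All Gfi1cre/+ libraries thus lay below all Gfi1+/+ libraries, as in 4.07% of all genes tested. The log2 fold change of *Gfi1* was -0.18 ± 0.0975 (SE). The study found no significant drop of *Gfi1* in these libraries and attributed this to transcript remaining from the Cre allele, which still adds reads. Gfi1+/+ replicate 1 stood apart from the other 5 libraries. On the first principal component, which held 54.3% of the variance, it lay at -44.0 and the others at -0.30 to 16.2. Several transcripts of central nervous system cells were high in this library and near 0 in the rest. The myelin oligodendrocyte gene *Mog* was at 232 normalized reads in Gfi1+/+ replicate 1 and at 0 to 3.55 in the other libraries, being 0 in both other Gfi1+/+ libraries. The glycine transporter *Slc6a5* was at 115 against 0 to 2.61. Choline acetyltransferase (*Chat*), counted on the efferent list, was at 58.01 against 0 to 0.870. Of the central nervous system list, 13 of 16 genes were listed in the table, 11 of them were highest in Gfi1+/+ replicate 1, and their sum was 6090.2 there and 4115 to 5201 elsewhere. Of the neuron list, 21 of 25 genes were highest in this library, with a sum of 21789 against 9873 to 13537. Of the efferent list, 4 of 5 listed genes were highest there, with a sum of 953 against 343 to 482. Of all genes tested, 24.9% were highest in this library. Fold changes that rest most on this library are therefore given with and without it, as are the main counts and medians. Levels per length are means over all 6 libraries.

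Genes of the cochlear duct were abundant. Among the highest means in each marker list were *Tectb*, *Gjb2* and *Otoa* of supporting cells, with means of 9017 to 47784 normalized reads, and *Dct*, *Kcnj10* and *Tyr* of the stria, at 1541 to 17404. Hair cell genes were led by *Myo6*, *Ocm* and *Otof*, at 1610.0 to 3763, Schwann cell genes by *S100b* and *Mbp*, at 5962 to 26889.7, and neuron genes by *Ntrk2*, *Uchl1* and *Stmn3*, at 1305 to 2737. *Bcan*, *Gja1* and *Cspg5* led the central nervous system list, at 630.02 to 2501, and were not near 0 in any library. *Calca*, *Ache* and *Slc5a7* led the efferent list, at 37.5 to 318. Of the skeletal muscle list, 8 of 23 genes were listed, led by *Des*, *Pvalb* and *Casq1*, at 109 to 443.

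By level per length, in normalized reads per kilobase of exon, the cochlear duct at this age carried 1 glycine receptor gene, 1 kainate gene, 1 muscle type nicotinic gene and 1 metabotropic gene well above the rest. *Glrb* was highest, at 364 ± 32.2 (SD, n = 6), followed by *Grik5*, an auxiliary kainate subunit, at 245 ± 8.19. Then came *Chrnb1*, the beta subunit of the muscle nicotinic receptor, at 125 ± 8.35, and *Grm4*, a metabotropic glutamate receptor coupled to inhibition of adenylyl cyclase, at 114 ± 7.84. In the order of all 29 levels per length, the ranges over the 6 libraries did not overlap between *Glrb* and *Grik5*, *Grik5* and *Chrnb1*, *Grm4* and *Chrna4*, and *Grid1* and *Chrna3*. All other neighbours in that order overlapped. Most subunits were low for this tissue, since 22 of 29 lay below 42.4 normalized reads per kilobase, the lower quartile of all genes tested, and 4 lay above their median of 111.

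Summed per kilobase over the listed genes, glutamate receptor genes made up 46.8% ± 1.57 (SD, n = 6) of the receptor level, the glycine gene 28.2% ± 2.58, nicotinic genes 21.8% ± 1.33 and GABA-A genes 3.25% ± 0.559. Glutamate held the largest share in each of the 6 libraries, between 43.9% and 48.7%. The glutamate sum includes metabotropic genes (10.3%) and delta genes (3.88%), while the other sums hold only channel subunits. GABA-B and muscarinic receptor genes were not picked, and *Chrna9* and *Chrna10* were left out, so the sets summed are unlike. Glycine was above acetylcholine in 5 libraries, and below it in Gfi1+/+ replicate 2, where the shares were 23.8% and 24.04%. Shares depend on the length that is used. Without division by length, glutamate had 56.7%, glycine 24.5% and acetylcholine 15.3%. With the longest transcript as the length, a setting chosen after the data were seen, glycine had 32.0% and acetylcholine 18.2%.

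**Figure D1:**
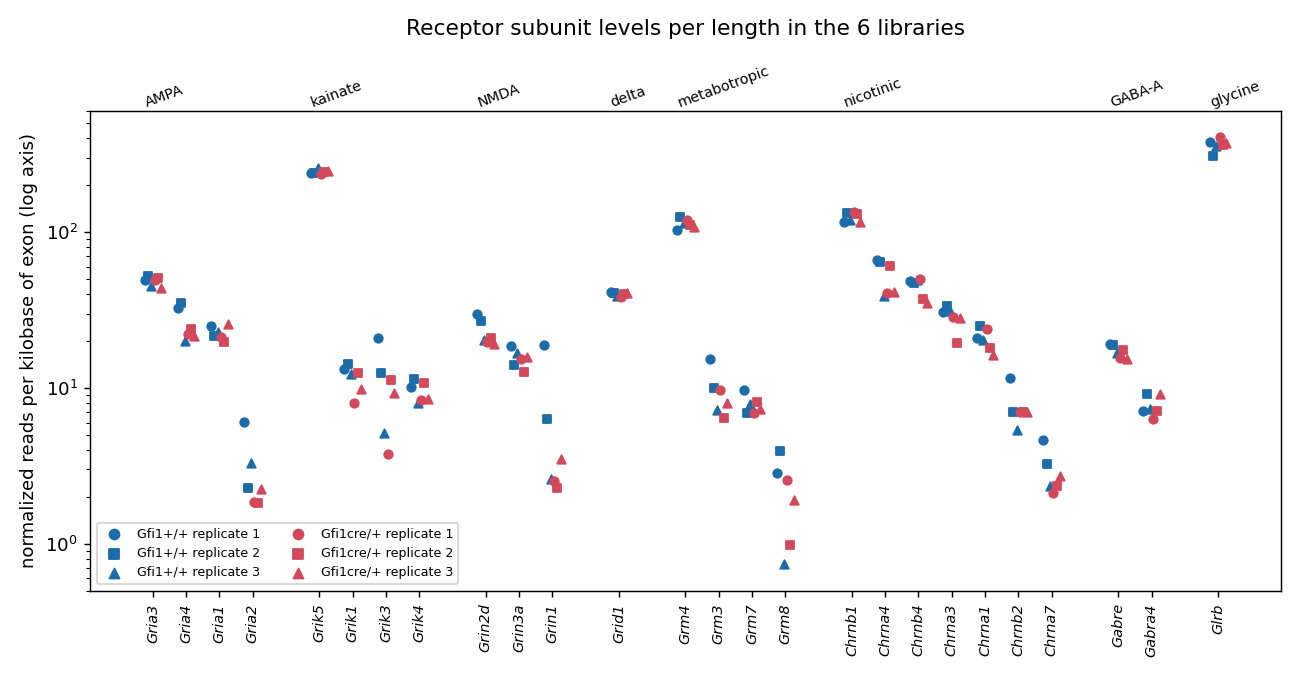
Level of receptor subunits in normalized reads per kilobase of exon (log axis), 1 point per library, with Gfi1+/+ in blue and Gfi1cre/+ in red, grouped by receptor class and ordered by mean within a class. *Glrb* and *Grik5* lie above the other subunits in all libraries, while the points of *Gria2*, *Grin1* and *Grik3* are spread widely, with Gfi1+/+ replicate 1 (blue circle) at the top.

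Gfi1cre/+ and Gfi1+/+ were compared to see whether 1 copy of the Cre allele goes with a change in receptor expression before the onset of hearing. No receptor gene passed the test. With limma on log2(normalized reads + 1) and Benjamini-Hochberg adjustment over all 14455 genes tested, 0 of 28 genes had an adjusted p under 0.05 (all adjusted p = 0.999), against 0.0277% of all genes, which are the 4 Y-linked genes named above. Neither edgeR nor DESeq2 on the recovered reads called any of the 28. *Chrna7* and *Grm8* stayed under the minimum of 40 normalized reads in every library and were not tested. At an unadjusted p under 0.05, 3 of 28 (10.7%) were past the threshold, *Gria2*, *Grin2d* and *Chrna3*, all lower in Gfi1cre/+, against 3.04% of all genes in either direction and 2.02% lower. edgeR put 3 (*Gria2*, *Grin2d* and *Grin1*) and DESeq2 put 2 (*Gria2* and *Grin1*) past it, without a count of all genes for either. None of the 28 was also beyond a fold of 2, against 0.470% of all genes. Of the genes tested, *Gria3* and *Gabre* lie on chromosome X, with log2 fold changes of -0.03 and -0.17.

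Most differences were small and below 0. The log2 fold change was below 0 in 26 of 28 genes, against 50.1% of all genes tested, and its median was -0.17, against -0.0001 for all genes. Neuron markers moved with this and further, since 24 of 24 tested genes of the neuron list were below 0, with a median of -0.77 (-0.31 without Gfi1+/+ replicate 1). Of these, 9 were lower at an unadjusted limma p under 0.05, against 2.02% of all genes (4 without that library, against 1.17%). Of the central nervous system list, 12 of 13 were below 0, with a median of -0.32 that was 0.01 without that library. Of these 13, 0 had an unadjusted p under 0.05, against 3.04% of all genes. The part of the neuron content in the receptor differences was not tested beyond the relation to *Nefm* given last. The median was -0.14 for the 16 glutamate genes, -0.21 for the 6 nicotinic genes and -0.33 for the 4 GABA-A genes, and *Glrb* was at 0.13. Leaving out Gfi1+/+ replicate 1, 22 of 28 were below 0 (50.8% of all genes) with a median of -0.10 (-0.08 for glutamate, -0.16 for nicotinic and -0.13 for GABA-A genes), and 1 gene, *Glrb*, had an unadjusted p under 0.05 (2.10% of all genes). That gene was higher in Gfi1cre/+, and 0 genes were lower at this threshold (1.17% of all genes) or beyond a fold of 2 (0.152%). Leaving out Gfi1+/+ replicate 3, 10 of 28 had an unadjusted p under 0.05, all lower, with 16.2% of all genes past it and 8.70% lower. In that comparison 3 of 28 were also beyond a fold of 2 (1.27% of all genes), 25 were below 0 (50.9%), and 0 passed the adjustment (0.332%). Ranges of the genotypes did not overlap for 2 of 28 genes, *Gria2* and *Chrna3*, both lower in Gfi1cre/+, against 4.07% of all genes, and for 0 genes higher, against 3.45% (7.52% in either direction). With 3 libraries against 3, the exact permutation test cannot give a p below 0.1.

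**Figure D2:**
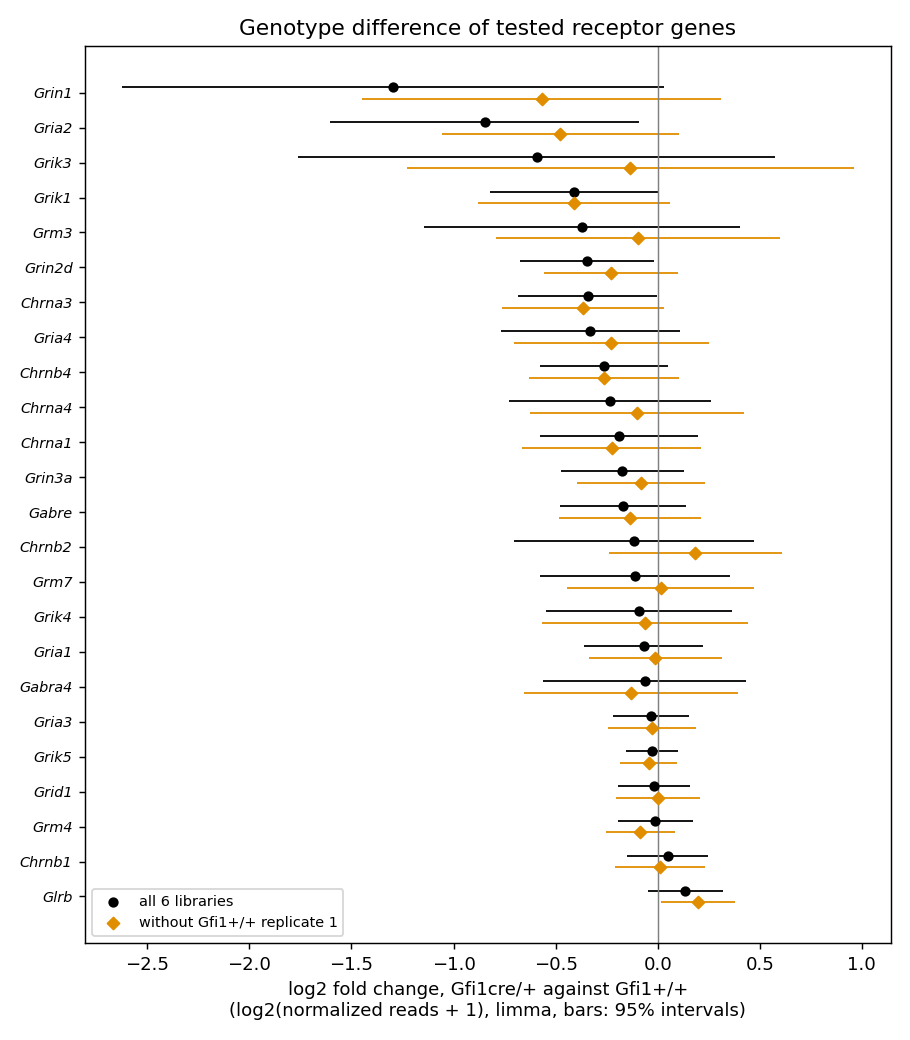
log2 fold change of Gfi1cre/+ against Gfi1+/+ for tested genes (limma on log2(normalized reads + 1)), with 95% intervals, in all 6 libraries (black circles) and without Gfi1+/+ replicate 1 (orange diamonds). All points but those of *Chrnb1* and *Glrb* lie below 0 with all libraries, and the points of *Grin1* and *Grik3*, which have wide intervals, lie further right without that library.

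Among the AMPA subunits, *Gria3*, *Gria4* and *Gria1* held most of the level per length and *Gria2* little. The levels per kilobase were 48.5 ± 3.24 (SD, n = 6) for *Gria3*, 25.9 ± 6.35 for *Gria4*, 22.8 ± 2.36 for *Gria1* and 2.93 ± 1.62 for *Gria2*. *Gria2* was at 93.8, 35.6 and 51.7 normalized reads in the Gfi1+/+ libraries, in replicate order, and 28.7, 28.4 and 34.9 in those of Gfi1cre/+. All 3 Gfi1cre/+ libraries were below all Gfi1+/+ libraries, but Gfi1cre/+ replicate 3 and Gfi1+/+ replicate 2 were nearly equal. The log2 fold change was -0.85 ± 0.334 (SE), with a 95% interval of -1.60 to -0.09, an unadjusted limma p of 0.0320 and an exact permutation p of 0.1, the smallest possible. It was -0.48 without Gfi1+/+ replicate 1, and the unadjusted limma p exceeded 0.05 without this library or without Gfi1cre/+ replicate 1 or 2. *Gria2* made up 5.33%, 2.05% and 3.63% of the AMPA level per length in Gfi1+/+ and 1.95%, 1.90% and 2.40% in Gfi1cre/+. The exons of *Gria2* span 15.5 kilobases and those of the other AMPA genes 6.04 to 9.86, so this share depends on the length. Without division by length, a setting chosen after the data were seen, it was 3.56% to 9.99% over the 6 libraries. The replicates of Gfi1+/+ spread more than those of Gfi1cre/+. *Gria4* was at 206, 221 and 126 normalized reads in Gfi1+/+ and 140.1, 151 and 136 in Gfi1cre/+, with the first and second Gfi1+/+ libraries high and the third lowest of all 6. Its log2 fold change was -0.33 ± 0.194 (SE), and -0.58 without Gfi1+/+ replicate 3 (limma, adjusted p = 0.0745). *Gria3* (488, 517 and 447 in Gfi1+/+ and 487, 499 and 433 in Gfi1cre/+) and *Gria1* (152, 131 and 139 in Gfi1+/+ and 128, 119.8 and 157 in Gfi1cre/+) had overlapping ranges, with log2 fold changes of -0.03 ± 0.0825 (SE) and -0.07 ± 0.129 (SE).

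Of the NMDA subunits, *Grin2d* and *Grin3a* were the main ones per length and *Grin1* had the lowest mean, with levels of 22.9 ± 4.47, 15.5 ± 2.11 and 6.04 ± 6.51 normalized reads per kilobase (SD, n = 6). *Grin1* was at 184, 61.8 and 25.3 normalized reads in the Gfi1+/+ libraries, in replicate order, and 24.4, 22.2 and 33.97 in those of Gfi1cre/+. Its value in Gfi1+/+ replicate 1 was 5.49 times the mean of the other 5 libraries, and Gfi1+/+ replicate 3 lay within the range of Gfi1cre/+. The log2 fold change of *Grin1* was -1.30 ± 0.587 (SE), with an interval of -2.62 to 0.03, an unadjusted limma p of 0.0543 and an exact permutation p of 0.2. Leaving out Gfi1+/+ replicate 1 gave -0.57, and leaving out replicate 3 of that genotype gave -1.98 (limma, adjusted p = 0.0928). On the recovered reads it was -1.73 with edgeR and -1.75 with DESeq2, which both put *Grin1* at an unadjusted p under 0.05 and an adjusted p above it. *Grin1* made up 28.1%, 13.4% and 6.57% of the NMDA level per length in Gfi1+/+ and 6.71%, 6.37% and 9.07% in Gfi1cre/+. These shares are of the 3 NMDA genes listed and differed widely between the Gfi1+/+ animals. In Gfi1+/+ replicate 1, *Grin1* was above *Grin3a* per length. With the longest transcript as the length, a setting chosen after the data were seen, the share of *Grin1* was 10.1% to 39.1%. Of its exons, 13.5% overlap those of *Grin1os* on the opposite strand, and the strand setting of the counting was not given in the sources used here. *Grin2d*, a subunit of slow NMDA receptors common in early life, was at 199, 180.1 and 135 in Gfi1+/+ and 131, 140.2 and 128 in Gfi1cre/+, where Gfi1+/+ replicate 3 lay within the range of Gfi1cre/+. Its log2 fold change was -0.34 ± 0.145 (SE) with an unadjusted limma p of 0.0419 and an exact permutation p of 0.2, and it was -0.23 without Gfi1+/+ replicate 1. The unadjusted p of *Grin2d* exceeded 0.05 when any library other than Gfi1+/+ replicate 3 was left out. *Grin3a*, which lowers calcium entry when it joins the receptor, was at 228, 172 and 207 in Gfi1+/+ and 188, 154 and 194 in Gfi1cre/+, with a log2 fold change of -0.17 ± 0.133 (SE).

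Kainate receptor transcripts were dominated by *Grik5*, with *Grik1* (11.7 ± 2.33 normalized reads per kilobase), *Grik3* (10.5 ± 6.18) and *Grik4* (9.52 ± 1.43) far below. *Grik5* needs a partner of the *Grik1* to *Grik3* type to form a channel. It was among the steadiest of the genes, at 1247, 1242 and 1342 normalized reads in Gfi1+/+ and 1221, 1255 and 1278 in Gfi1cre/+, with a log2 fold change of -0.03 ± 0.0560 (SE) and an interval of -0.15 to 0.10. *Grik3* was the least steady, at 189, 112 and 46.4 in Gfi1+/+ and 33.9, 100.3 and 83.03 in Gfi1cre/+, and the lowest value was that of Gfi1cre/+ replicate 1. Its log2 fold change was -0.59 ± 0.517 (SE), with -0.13 when Gfi1+/+ replicate 1 was left out and -1.13 when replicate 3 of that genotype was (limma, adjusted p = 0.219). *Grik1* was at 88.9, 96.3 and 82.3 in Gfi1+/+ and 53.96, 83.4 and 66.05 in Gfi1cre/+, where only Gfi1cre/+ replicate 2 reached the range of Gfi1+/+. Its log2 fold change was -0.41 ± 0.181 (SE) with an unadjusted limma p of 0.0506 and an exact permutation p of 0.2, and it was -0.41 without Gfi1+/+ replicate 1. Without Gfi1cre/+ replicate 2 the log2 fold change of *Grik1* was -0.57, with an unadjusted limma p under 0.05. *Grik4*, the other auxiliary subunit, was at 60.5, 68.1 and 47.5 in Gfi1+/+ and 49.6, 63.9 and 50.95 in Gfi1cre/+, with a log2 fold change of -0.09 ± 0.201 (SE).

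Delta receptors bind cerebellins rather than open to glutamate. *Grid1*, which is one of them, had 39.9 ± 1.11 normalized reads per kilobase and was at 246, 242 and 231 normalized reads in Gfi1+/+ and 229, 239 and 242 in Gfi1cre/+, all 6 within a narrow band, with a log2 fold change of -0.02 ± 0.0775 (SE) and an interval of -0.19 to 0.16.

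Metabotropic glutamate receptors were represented by *Grm4*, *Grm3*, *Grm7* and *Grm8*, and of these *Grm4* held most of the level. *Grm4* was at 615, 744 and 688 normalized reads in Gfi1+/+ and 713, 669 and 643 in Gfi1cre/+, with a log2 fold change of -0.01 ± 0.0810 (SE) and an interval of -0.20 to 0.17. The ranges of the genotypes overlapped throughout. *Grm3*, a receptor also found on glia, had 9.46 ± 3.21 normalized reads per kilobase and was at 46.9, 30.4 and 22.1 in Gfi1+/+ and 29.6, 19.5 and 24.5 in Gfi1cre/+, highest in Gfi1+/+ replicate 1. *Grm7*, a presynaptic receptor, had 7.82 ± 1.02 per kilobase and was at 40.8 to 56.8 normalized reads. Their log2 fold changes were -0.37 ± 0.342 (SE) and -0.11 ± 0.206 (SE), and -0.10 and 0.01 without Gfi1+/+ replicate 1. *Grm8*, untested, was at 28.4, 38.7 and 7.38 normalized reads in Gfi1+/+ and 25.2, 9.76 and 18.9 in Gfi1cre/+, from 7 reads in Gfi1+/+ replicate 3.

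Nicotinic transcripts comprised both subunits of the muscle type that were listed and 5 of the neuronal type. *Chrnb1* was at 296, 336 and 304 normalized reads in the Gfi1+/+ libraries, in replicate order, and 340.3, 333 and 295 in those of Gfi1cre/+, with overlapping ranges and a log2 fold change of 0.05 ± 0.0869 (SE). *Chrna1*, the subunit that binds acetylcholine in the same receptor, had 20.7 ± 3.26 normalized reads per kilobase, a lower level per length than *Chrnb1* in all 6 libraries. It was at 91.3, 109 and 88.6 normalized reads in Gfi1+/+ and 104, 79.00 and 71.7 in Gfi1cre/+, with a log2 fold change of -0.19 ± 0.171 (SE). The other subunits of this receptor, *Chrnd*, *Chrne* and *Chrng*, were not listed. *Rapsn*, which clusters the muscle receptor, was at 73.8 to 83.4 in the 6 libraries.

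Of the neuronal type, *Chrna4* (51.9 ± 12.9 normalized reads per kilobase), *Chrnb4* (44.6 ± 6.72) and *Chrna3* (28.6 ± 4.85) were highest, and *Chrnb2* (7.51 ± 2.12) and *Chrna7* (2.91 ± 0.943) lowest. *Chrna3* and *Chrnb4* are the pair typical of autonomic ganglia. *Chrna3* was at 163, 176 and 165 normalized reads in the Gfi1+/+ libraries, in replicate order, and 151, 103 and 148 in those of Gfi1cre/+. All Gfi1cre/+ libraries lay below all Gfi1+/+ libraries, with Gfi1cre/+ replicate 2 well below the rest. The log2 fold change of *Chrna3* was -0.34 ± 0.151 (SE) with an unadjusted limma p of 0.0489 and an exact permutation p of 0.1, the smallest possible, and it was -0.17 without Gfi1cre/+ replicate 2. Its unadjusted p also exceeded 0.05 when any Gfi1+/+ library was left out, and with edgeR, DESeq2 and quantile normalization. Its neighbour *Chrnb4* was at 180.2, 176 and 185 in Gfi1+/+ and 187, 138 and 130.2 in Gfi1cre/+, where Gfi1cre/+ replicate 1 was the highest library and the other Gfi1cre/+ libraries were the lowest. The log2 fold change of *Chrnb4* was -0.26 ± 0.138 (SE), and -0.42 without Gfi1cre/+ replicate 1, where the unadjusted limma p was under 0.05. *Chrna4* was at 332, 322 and 195 in Gfi1+/+ and 204, 303 and 208 in Gfi1cre/+, with 1 library of Gfi1+/+ below all those of Gfi1cre/+ and 1 library of Gfi1cre/+ near the 2 high Gfi1+/+ libraries. Its log2 fold change was -0.23 ± 0.218 (SE), and -0.10 without Gfi1+/+ replicate 1. *Chrnb2*, the usual partner of *Chrna4*, was at 97.5, 58.6 and 45.4 in Gfi1+/+ and 59.2, 58.6 and 58.5 in Gfi1cre/+, and its log2 fold change of -0.12 turned to 0.18 without Gfi1+/+ replicate 1. Of its exons, 16.3% overlap those of *Adar* on the opposite strand. *Chrna7*, untested, was at 20.98, 14.7 and 10.6 in Gfi1+/+ and 9.57, 10.7 and 12.3 in Gfi1cre/+. The hair cell subunits *Chrna10* and *Chrna9*, which the selection left out, were at 322 to 416 and 123 to 158 normalized reads.

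Among the genes picked by symbol, those of inhibitory channels were the glycine beta subunit and 4 low GABA-A genes. GABA-B receptor genes are not matched by the symbols used, and *Gabbr2* was read among the partners. *Glrb* was at 1754, 1442 and 1655 normalized reads in the Gfi1+/+ libraries, in replicate order, and 1896, 1678 and 1743 in those of Gfi1cre/+, and Gfi1cre/+ replicate 1 was the highest library and Gfi1+/+ replicate 2 the lowest. The log2 fold change of *Glrb* was 0.13 ± 0.0812 (SE), with an interval of -0.05 to 0.32 and an exact permutation p of 0.3. Without Gfi1+/+ replicate 1 it was 0.20, with an unadjusted limma p under 0.05 and an adjusted p far above it. The alpha subunits of the glycine receptor, which bind the transmitter, were not listed. Among the GABA-A genes, *Gabre* (epsilon) had 17.2 ± 1.56 normalized reads per kilobase and *Gabra4* (alpha4) 7.68 ± 1.18. *Gabre* (90.1, 89.00 and 79.1 in Gfi1+/+ and 73.98, 82.5 and 72.7 in Gfi1cre/+) and *Gabra4* (43.2, 55.5 and 44.3 in Gfi1+/+ and 38.3, 43.5 and 55.7 in Gfi1cre/+) had overlapping ranges, and their log2 fold changes were -0.17 ± 0.137 (SE) and -0.06 ± 0.219 (SE).

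Genes whose products anchor, traffic or modify these receptors were read from 3 lists. No gene of the lists had an adjusted limma p under 0.05. Of 26 tested partners of glutamate receptors, 2 were lower at an unadjusted p under 0.05 and 0 were higher, against 2.02% of all genes lower, with a median log2 fold change of -0.05. Without Gfi1+/+ replicate 1, the same 2 were lower, against 1.17% of all genes, *Cbln1*, a ligand of delta receptors, was higher at 0.84, and the median was -0.01. *Shank1*, a postsynaptic scaffold, was at 246, 146 and 128 normalized reads in Gfi1+/+ and 101, 124 and 95.3 in Gfi1cre/+, with a log2 fold change of -0.64 ± 0.227 (SE) (unadjusted limma p of 0.0203, exact permutation p of 0.1), and -0.36 without Gfi1+/+ replicate 1. *Cacng5*, an auxiliary AMPA receptor subunit, was at 55.5, 60.7 and 70.7 in Gfi1+/+ and 46.1, 40.8 and 47.2 in Gfi1cre/+, with a log2 fold change of -0.47 ± 0.182 (SE) (unadjusted limma p of 0.0307, exact permutation p of 0.1). All Gfi1cre/+ libraries lay below all Gfi1+/+ libraries in both genes, as in 4.07% of all genes tested. Both were named for their p-values in the same libraries, so the separated ranges are no independent result. Of 16 partners of inhibitory receptors, 1 was lower, *Lhfpl4*, which assembles GABA-A receptors at synapses, against 2.02% of all genes lower, and the median was -0.02. *Lhfpl4* was at 197, 118 and 82.3 in Gfi1+/+ and 66.2, 71.9 and 89.6 in Gfi1cre/+, with a log2 fold change of -0.72 ± 0.281 (SE) (unadjusted limma p of 0.0311, exact permutation p of 0.2). Without Gfi1+/+ replicate 1 it was -0.39, and 0 of the 16 had an unadjusted p under 0.05, against 2.10% of all genes. Of 13 partners of nicotinic receptors, 0 had an unadjusted limma p under 0.05, against 3.04% of all genes, and the median was -0.05.

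Many of the receptor genes stood high in the library that held the central nervous system transcripts. Of the 28, 14 were highest in Gfi1+/+ replicate 1, against 24.9% of all genes tested, and 7 exceeded the highest other library more than 1.5 times, against 2.41%. Among these were *Grin1*, *Gria2*, *Grik3*, *Grm3* and *Chrnb2*. Among partners, the AMPA receptor subunit *Cacng2* was at 109.9 normalized reads in this library and 7.10 to 18.9 in the others, and the neuronal chloride exporter *Slc12a5* at 367 and 69.2 to 90.04. *Grm4*, *Grik5* and *Glrb* were not highest there. The part of central nervous system transcripts in the receptor values was not tested.

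**Figure D3:**
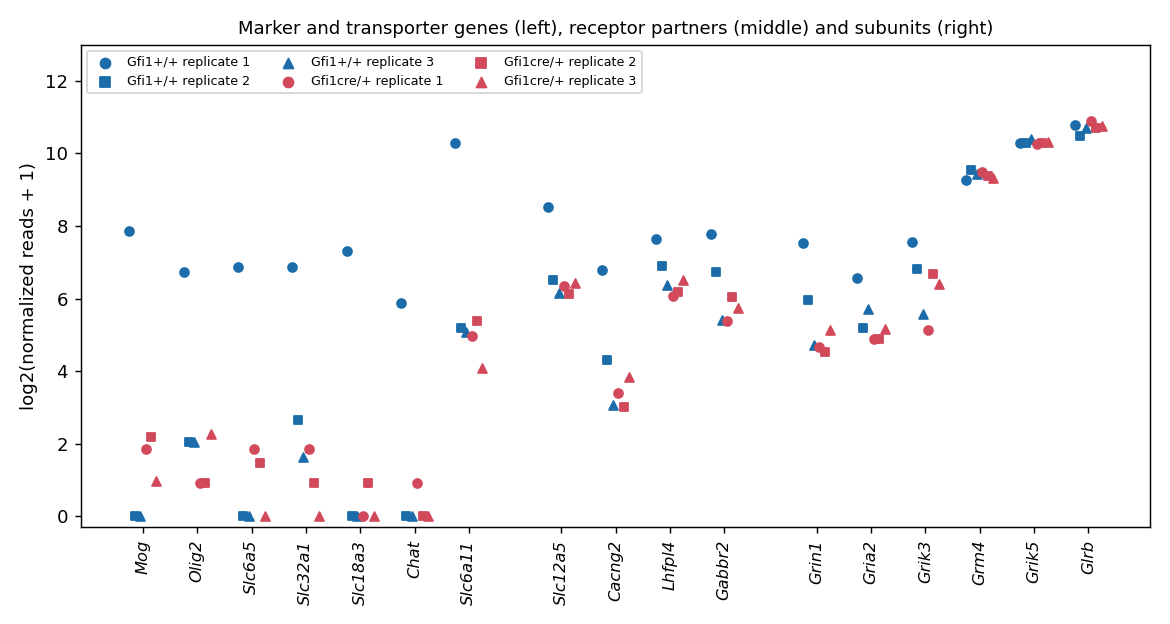
log2(normalized reads + 1) of marker and transporter genes (left), receptor partners (middle) and receptor subunits (right), 1 point per library, with genes picked after their values were seen. The blue circle, Gfi1+/+ replicate 1, stands far above the other libraries for the genes on the left, above them for *Slc12a5*, *Cacng2* and *Grin1*, and among them for *Grm4*, *Grik5* and *Glrb*.

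The relation of each gene to *Nefm*, a neurofilament subunit of large axons, was then followed across the 6 libraries. *Nefm* was at 3449, 712 and 378 normalized reads in the Gfi1+/+ libraries, in replicate order, and 178, 315 and 499 in those of Gfi1cre/+. Over the 28 genes the median Pearson r with *Nefm* on the log2 scale was 0.63, against 0.01 over all 14454 genes tested, and 23 of 28 were positive, against 50.3%. The median was 0.72 for glutamate receptor genes, 0.72 for GABA-A genes and 0.26 for nicotinic genes, and *Glrb* was at -0.20. r exceeded 0.8 in 6 of 28 (21.4%), against 6.48% of all genes. No relation passed the adjustment over all genes, whose smallest adjusted p was 0.300 (exact permutation over 720 orders), although 1348 genes, 5 of them among the 28, had an unadjusted p under 0.05.

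*Grin1* followed *Nefm* most closely, with r = 0.96 (exact permutation p = 0.00417, adjusted p = 0.390) and Spearman's rho = 0.94 (exact permutation p = 0.0167, adjusted p = 0.739). Without the 2 libraries farthest from the median of *Nefm*, Gfi1+/+ replicate 1 and Gfi1cre/+ replicate 1, r of *Grin1* was 0.99 over 4 libraries. For *Gria2*, r = 0.87 (exact permutation p = 0.0417, adjusted p = 0.511) and rho = 0.77 (exact permutation p = 0.103) fell to r = 0.04 over the 4 libraries, so that relation rests on the 2 left out. *Grin2d* had r = 0.86 (exact permutation p = 0.0194) and rho = 0.60 (p = 0.242), and r = 0.69 over the 4. *Grik3* had r = 0.86 (exact permutation p = 0.0250) and rho = 0.83 (p = 0.0583), and r = 0.41 over the 4. *Grid1*, in spite of its narrow range, had r = 0.80 (exact permutation p = 0.0319) and rho = 0.94 (p = 0.0167), and r = 0.57 over the 4. The adjusted exact permutation p of r was 0.461 for *Grin2d*, 0.490 for *Grik3* and 0.496 for *Grid1*. The lowest r were those of *Grm4* (-0.58) and *Chrnb1* (-0.57).

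Much of the relation rested on Gfi1+/+ replicate 1. Over the 28 genes the median r was 0.33 without the 2 farthest libraries and 0.29 without Gfi1+/+ replicate 1 alone. Leaving out that library alone, the median was 0.39 for glutamate receptor genes, 0.21 for GABA-A genes, of which 2 of 4 were positive, and -0.06 for nicotinic genes, of which 2 of 6 were positive. Without that library, r stayed at 0.81 for *Grin1*, 0.80 for *Grid1* and 0.77 for *Grik3*, and was 0.39 for *Gria2* and -0.03 for *Chrnb2*. For *Glrb* it was -0.86. When each library was set against the mean of its own genotype, the median r was 0.52, against 0.002 over all genes. With *Nefm* as a covariate in limma, 0 of the 28 had an unadjusted p under 0.05 and 17 were below 0. The share of all genes was not counted for this fit. The log2 fold change of *Nefm* between the genotypes was -1.68 ± 0.695 (SE), and -0.77 without Gfi1+/+ replicate 1, so this covariate overlaps with genotype. *Nefm* itself was highest in Gfi1+/+ replicate 1, so the neuron content of a library and its central nervous system transcripts cannot be told apart in that library.

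**Figure D4:**
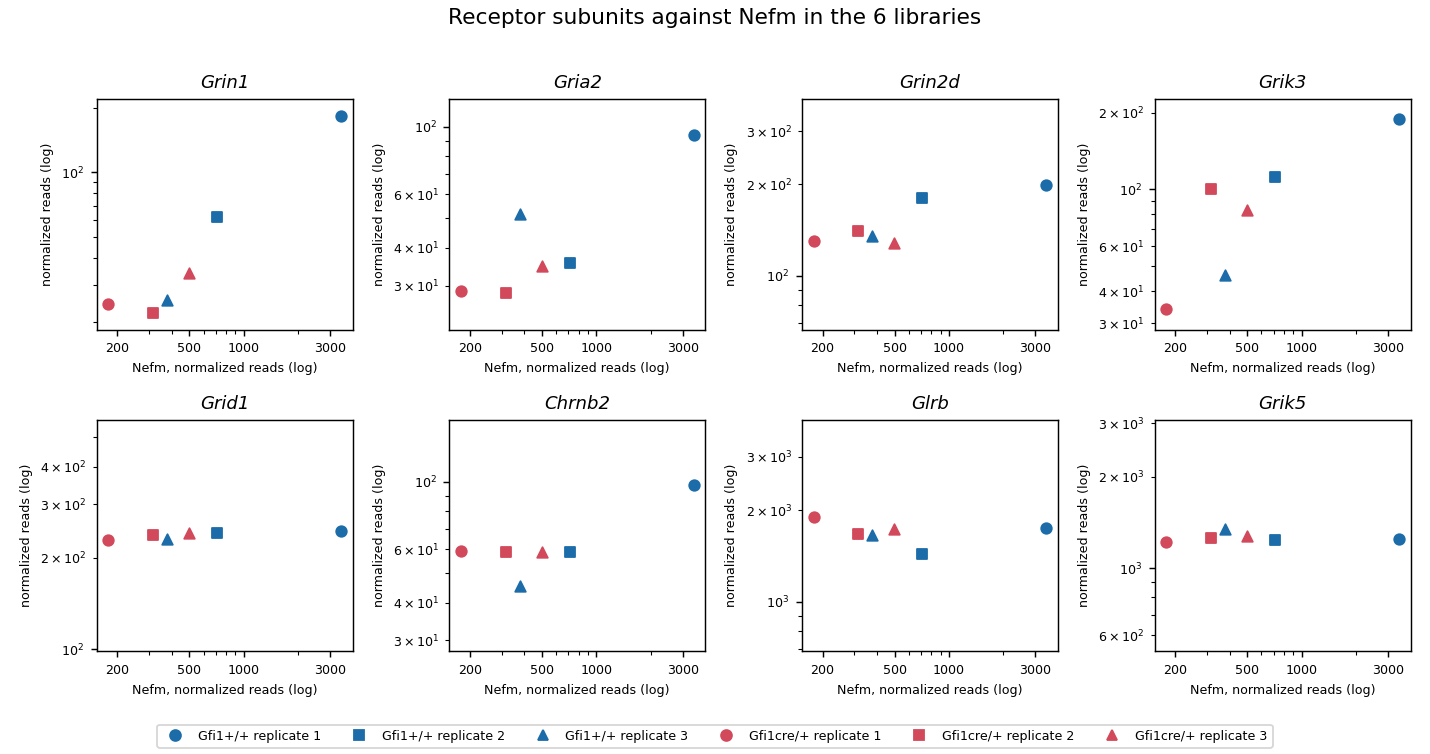
Normalized reads of 8 receptor subunits (vertical log axes) against normalized reads of *Nefm* (horizontal log axes), 1 point per library, with Gfi1+/+ in blue and Gfi1cre/+ in red. Gfi1+/+ replicate 1 is the point at the far right, and *Grin1* rises with *Nefm* among the other libraries too, while *Glrb* and *Grik5* vary little.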

How the data were processed

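RNA-seq libraries of polyA RNA were made with the TruSeq kit. The authors aligned reads to mm10 with TopHat, counted them with HTSeq and kept genes with at least 40 reads (the submitters' notes name these tools, and versions, annotation and strand setting were not given in the sources used here). The deposited signal is described as quantile-normalized, but all values in each column were whole multiples of 1 step (tolerance 0.006), that is, read counts divided by a factor per library, and the columns did not share quantiles. Genotypes were compared with limma 3.58.1 (R 4.3.3, eBayes with a trend, two-sided) on log2(value + 1) for 14455 genes with at least 40 normalized reads in 1 library or more, with Benjamini-Hochberg adjustment. edgeR 4.0.16 and DESeq2 1.42.0 on recovered reads, other pseudocounts (0.1, 10 and 40), filters, normalizations, variance settings, a replicate block, a *Nefm* covariate and libraries left out were alternatives. Relations to *Nefm* used exact permutation of the 6 libraries. Lengths are exon unions of GENCODE M21 on GRCm38, floors cover counting error only, and the 95% intervals of fold changes are limma's and cover the spread between libraries. Fold changes on this log scale understate those of genes with few reads. Steps were tested on simulated data. Replicates are described as independent biological samples.

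The genes and lists were chosen with earlier results of these data known. Named are the 3 highest and the lowest gene per length in each class, genes with an unadjusted p under 0.05, untested genes, muscle type nicotinic genes, partners with an unadjusted p under 0.05, *Nefm* and the 3 highest genes of each cell type list. Some genes that enter the counts and medians are not reported here by name. Other genes were named after their values were seen. Partner lists were written from general knowledge.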

Additional observations from a re-analysis of the deposited data

How the results depend on the processing

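No alternative gave any of the 28 genes an adjusted p under 0.05, and the count at an unadjusted p, 3 in the reported fit, was 0 with *Nefm* as a covariate and 1 to 10 when single libraries were left out (1 without Gfi1+/+ replicate 1, Gfi1+/+ replicate 2 or Gfi1cre/+ replicate 2, and 10 without Gfi1+/+ replicate 3). Genes beyond a fold of 2 with an unadjusted p numbered 1 with edgeR and 1 with DESeq2, in both cases *Grin1*, and 0 to 3 with single libraries left out. With *Nefm* as a covariate, 17 genes were below 0, with a median of -0.033 for all 28 and -0.061 for GABA-A genes, and 11 of 28 changed sign, among them *Grik3* (0.46), *Chrnb2* (0.35) and *Chrnb1* (-0.024). *Chrnb2* ran from -0.36 to 0.18 with single libraries left out and changed sign without Gfi1+/+ replicate 1, as did *Grm7*. The median r with *Nefm* was 0.45 after quantile normalization and 0.29 to 0.71 with single libraries left out, and shares of the summed level without length were 56.7% for glutamate, 15.3% for acetylcholine and 24.5% for glycine, and with the longest transcript 18.2% for acetylcholine and 32.0% for glycine. The cause of these shifts was not tested. With the replicate number as a block, 5 genes had an unadjusted limma p under 0.05 and 1 of these was beyond a fold of 2. Same-numbered libraries correlated at -0.09, 0.11 and -0.03 in their deviations from the genotype means, and differently numbered ones at -0.16 to 0.15. Whether same-numbered libraries share a litter or batch was not tested. Shares of all genes past the same thresholds were counted only for the reported fit and without Gfi1+/+ replicate 1 or 3. The other counts here stand without a share. Depth limits *Grm8* and *Chrna7*, which had 7 to 10 reads in their lowest library.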

Other observations

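Genes that make, load or clear the transmitters were measured beside the receptors. Of 20 tested, 0 had an unadjusted limma p under 0.05, against 3.04% of all genes, a share at which so few genes can easily give 0. Their median log2 fold change was -0.29 with all libraries and 0.04 without Gfi1+/+ replicate 1. Of the 21 listed, 17 were highest in that library, against 24.9% of all genes tested. The most abundant were *Glul* (glutamine synthetase), the glutamate transporter *Slc1a3* and the GABA transaminase *Abat*, with means of 10255, 2461 and 1385 normalized reads. *Slc17a7*, the vesicular glutamate transporter of spiral ganglion neurons, was at 70.4, 104 and 92.8 in the Gfi1+/+ libraries, in replicate order, and 22.6, 59.5 and 97.2 in those of Gfi1cre/+ and was not highest in Gfi1+/+ replicate 1. *Slc17a6*, its relative found in much of the brainstem, was at 95.04, 54.4 and 20.04 in Gfi1+/+ and 15.7, 32.8 and 31.1 in Gfi1cre/+ and was. The GABA transporter *Slc6a11* was at 1254 in Gfi1+/+ replicate 1 and at 16.04 to 40.8 in the other libraries. The vesicular acetylcholine transporter *Slc18a3* was at 159 in the same library and at 0 to 0.890 elsewhere.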
